A study of Mus musculus with 12 samples.

Results

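The MAP kinase cascade passes signals from the cell surface to the nucleus through kinases that phosphorylate each other in series. A MAP3K activates a MAP2K, the MAP2K activates a MAPK, and the MAPK phosphorylates transcription factors and other substrates. The branch through *Map2k1*, *Map2k2* and *Mapk3* (MEK1, MEK2 and ERK1) mainly carries growth factor signals, while several MAP3Ks feed stress signals into the JNK and p38 branches or into NF-kappa-B signaling. In the eye, *Map3k1* is known for its part in the closure of the embryonic eyelid, and *Map3k12* and *Map3k13* are known for the response of retinal ganglion cells to axon injury.

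The 9 kinases described here are *Map3k1*, *Map3k5*, *Map3k8*, *Map3k12*, *Map3k13* and *Map3k14* of the MAP3K level, *Map2k1* and *Map2k2* of the MAP2K level, and *Mapk3* of the MAPK level. They were found by gene symbol from a list chosen with earlier results of these data known, and all 9 were among the 770 genes of a mouse cancer pathway panel. The panel (nCounter, NanoString) counts RNA molecules with color-coded probes and without amplification. Values are the normalized signal deposited by the authors, and no value of the 9 kinases was at the lowest value of its sample.

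The samples were 4 control eyes, 5 *RBS* lesions and 3 Shh-MBs, each from a different mouse and each from fresh frozen tissue. *RBS* lesions are eyes of *Rax-creERT2::Ctnnb1(ex3)Fl/+SmoM2Fl/+* embryos collected at E18.5 after tamoxifen at E8.5. In these mice, a tamoxifen-inducible Cre under the *Rax* promoter, which is active in retinal precursor cells, removes exon 3 of *Ctnnb1* and switches on *SmoM2*, so that Wnt and Shh signaling are activated together. Control eyes came from E18.5 *Ctnnb1(ex3)Fl/+SmoM2Fl/+* embryos, which carry both floxed alleles without a Cre driver, and the labels do not say whether their mothers received tamoxifen. Shh-MBs are cerebellar tumors of *hGFAP-cre::SmoM2Fl/+* mice at an age of 14 days, in which Cre acts in precursor cells of the brain and activates Shh signaling without the *Ctnnb1* allele. The floxed *SmoM2* allele is thus present in all 3 groups. Tissue, age and genotype all differ between Shh-MBs and eyes and cannot be told apart. In whole eyes and tumors, fewer cells of a type and less RNA per cell cannot be told apart either.

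Depth, taken as the total signal divided by the spacing of low values, was between 335392 and 716684 counting steps per sample, with the lowest depth in RBS 1. Of the total signal, 26.9% to 29.7% came from the 3 most abundant genes in *RBS* lesions, beside 42.8% to 50.9% in control eyes and 50.0% to 51.8% in Shh-MBs. Scaling therefore matters for every comparison. Over all 770 genes, the log2 differences had a median of 0.17 for *RBS* lesions minus control eyes, 0.53 for *RBS* lesions minus Shh-MBs and -0.22 for Shh-MBs minus control eyes. Centring each sample on its own median moved all log2 differences by -0.18, -0.85 and 0.67 in these comparisons, and for the comparisons of single genes named below, values after centring are given where they change a direction or a call. The marker list for the labelled tissues had 5 of its 22 genes on the panel (*Zic2*, *Gli1*, *Sfrp1*, *Ccnd2* and *Mycn*), none of which defines the eye, and all 5 were higher in Shh-MBs than in both kinds of eye. In *RBS* lesions, *Mycn*, *Sfrp1* and *Gli1*, a target gene of Shh signaling, were lower than in control eyes, with *Gli1* at a mean signal of 69.8 against 110.3 (log2 difference -0.67, adjusted *p* = 0.00559, limma). As a check of the alleles, *Ctnnb1* signal was 7957 ± 395 in the 5 *RBS* lesions and 5688 ± 171 in the 4 control eyes (mean ± SD), and *Smo* signal was 177 ± 13.6 and 157 ± 14.5. *Ctnnb1* passed the test (log2 difference 0.48, adjusted *p* = 0.00063, limma). *Smo* did not (0.18, adjusted *p* = 0.164, limma), its groups overlapped, and its difference was no larger than the shift of -0.18 by centring. In the 3 Shh-MBs, *Smo* signal was 158 ± 24.1. The position of the *Ctnnb1* probe relative to exon 3 is not given in the sources used here, nor whether the *Smo* probe reads *SmoM2*.

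In the MEK and ERK branch, *Map2k2* and *Mapk3* exceeded their level in control eyes by 1.27-fold and 1.45-fold in *RBS* lesions (fold changes are on the scale of log2 of the signal plus 1). For *Map2k1*, the mean ± SD was 692 ± 77.1 over the 5 *RBS* lesions and 696 ± 34.5 over the 4 control eyes, and it did not pass the test. The MAP3Ks *Map3k12* and *Map3k13* were 1.85-fold and 1.44-fold higher in *RBS* lesions. Of the 4 kinases that were higher in *RBS* lesions, *Mapk3* alone also passed the test after centring. None of the 4 passed the Welch *t* test with step-down Bonferroni adjustment, where 9.35% of all genes did. Shh-MBs had 8.65-fold more *Map3k1* than control eyes and 10.5-fold more than *RBS* lesions, and 3.25-fold less *Map3k5* than *RBS* lesions. The 3 comparisons share their groups, so their results are not independent of each other.

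Between *RBS* lesions and control eyes, 4 of the 9 kinases were higher in *RBS* lesions (*Map2k2*, *Map3k12*, *Map3k13* and *Mapk3*) at an adjusted *p* under 0.05 (limma, Benjamini-Hochberg over all genes), where 33.0% of all genes were. None was lower, where 18.2% of all genes were. At an unadjusted *p* under 0.05, *Map3k5* was added to those higher and none to those lower, where 36.1% of all genes were higher and 19.7% lower. The groups did not overlap for 2 of the 9, *Map2k2* and *Mapk3*, where 43.4% of all genes had groups that do not overlap. The median log2 difference of the 9 kinases was 0.34, beside 0.17 over all genes. With each sample centred on its median, 1 kinase was higher (*Mapk3*) and 1 was lower (*Map3k1*), and over all genes the calls changed from 254 higher and 140 lower to 177 higher and 177 lower.

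Between *RBS* lesions and Shh-MBs, 5 of the 9 kinases were higher in *RBS* lesions (*Map2k1*, *Map2k2*, *Map3k5*, *Map3k12* and *Mapk3*, of which all but *Map3k5* lay between -0.11 and -0.04 after centring), where 48.1% of all genes were. *Map3k1* was lower, where 12.7% of all genes were. Groups did not overlap for these 6 kinases, beside 59.9% of all genes. The median log2 difference of the 9 was 0.74, beside 0.53 over all genes. After centring, 1 kinase was higher (*Map3k5*) and 3 were lower (*Map3k1*, *Map3k13* and *Map3k14*), while over all genes the calls went from 370 higher and 98 lower to 181 higher and 319 lower.

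Between Shh-MBs and control eyes, 2 of the 9 kinases were higher in Shh-MBs (*Map3k1* and *Map3k13*), where 9.61% of all genes were. A further 3 were lower (*Map2k1*, *Map3k5* and *Map2k2*, which turned to 0.27 after centring), where 31.4% of all genes were. The groups did not overlap for 3 kinases (*Map3k1*, *Map2k1* and *Map2k2*), beside 48.2% of all genes. The median log2 difference was -0.22 over the 9 kinases and -0.22 over all genes. After centring, 4 kinases were higher (*Map3k1*, *Map3k13*, *Map3k14* and *Mapk3*) and none lower, while all-gene calls went from 74 higher and 242 lower to 311 higher and 139 lower.

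**Figure D1:**
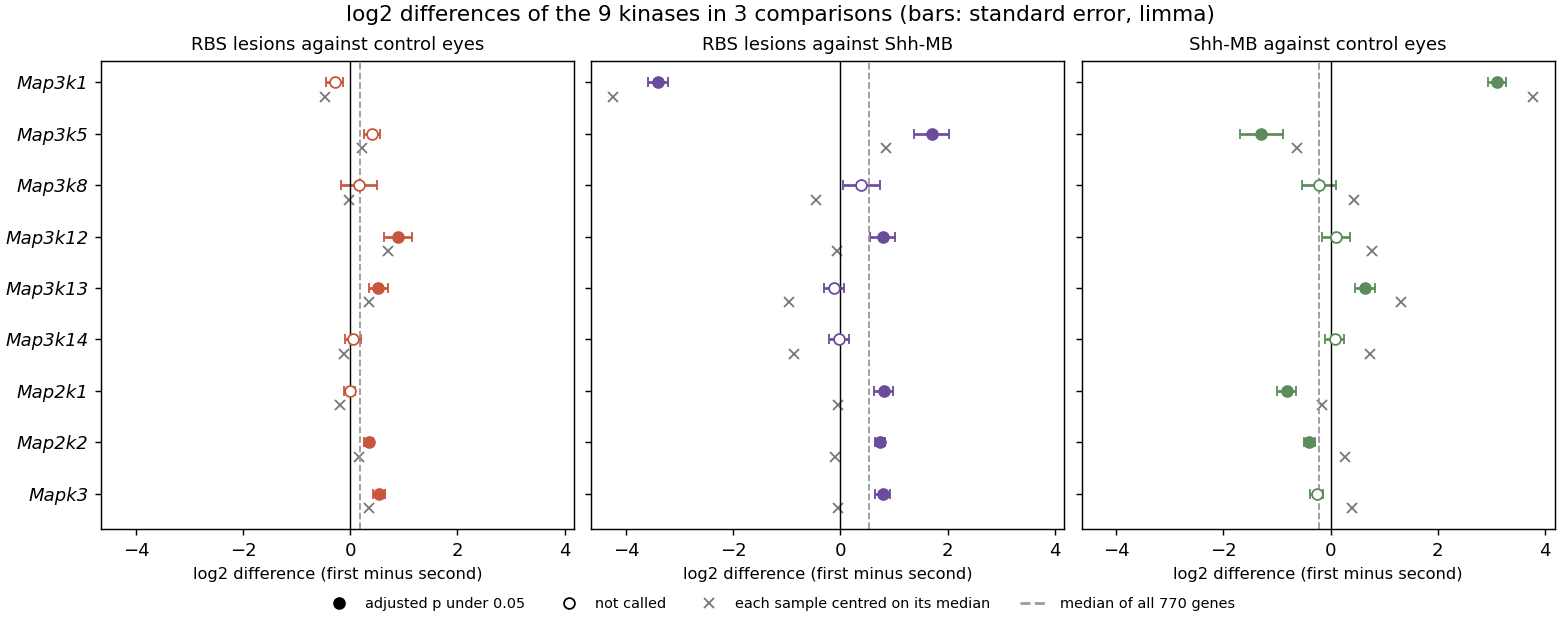
log2 differences (x axis, first group minus second, log2 of signal plus 1) of the 9 kinases (rows) in the 3 comparisons, with bars for the standard error from limma, filled points for an adjusted *p* under 0.05, crosses for the same difference with each sample centred on its median and a dashed line for the median of all 770 genes. *Map3k1* lies at -3.40 for *RBS* lesions against Shh-MB and at 3.11 for Shh-MB against control eyes, and the crosses of *Map2k1*, *Map2k2*, *Map3k12* and *Mapk3* lie below 0 in the middle panel, where their points lie above it.

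*Map3k1* encodes MEKK1, a large MAP3K that signals mainly to JNK and also to ERK and that carries a ubiquitin ligase domain. Its signal was 1696, 2027 and 2419.8 in the 3 Shh-MBs. In *RBS* lesions it was 159.7, 171, 186, 260.4 and 193, and in control eyes it was 265, 224, 196 and 255. Every Shh-MB was far above every eye, and the 2 groups of eyes overlapped. The log2 difference of Shh-MBs minus control eyes was 3.11 (standard error 0.167, adjusted *p* = 1.99e-05, limma), which is 8.65-fold. For *RBS* lesions minus Shh-MBs it was -3.40 (standard error 0.187, adjusted *p* = 3.62e-06, limma), which is 10.5-fold. Its direction held in every alternative scaling of both comparisons. Between the eyes, the difference of *RBS* lesions minus control eyes was -0.29 (standard error 0.157, adjusted *p* = 0.165, limma) and did not pass the test. It passed with each sample centred on its median (-0.47, adjusted *p* = 0.0260), with quantile normalization (-0.45, adjusted *p* = 0.0284) and without RBS 4, the *RBS* lesion with the highest value (-0.40, adjusted *p* = 0.0289).

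The promoter of *Map3k1* is shown because this kinase had the largest difference among the 9. The sequence comes from RefSeq (GRCm38.p6), runs from 250 bases before to 50 bases after the start of the gene and is located at chr13:111808944-111809243 on the minus strand. Capitals mark the GC box (GGGCGG or its reverse complement CCGCCC), which was found 6 times, with a pair of matches that overlap.
*Map3k1*: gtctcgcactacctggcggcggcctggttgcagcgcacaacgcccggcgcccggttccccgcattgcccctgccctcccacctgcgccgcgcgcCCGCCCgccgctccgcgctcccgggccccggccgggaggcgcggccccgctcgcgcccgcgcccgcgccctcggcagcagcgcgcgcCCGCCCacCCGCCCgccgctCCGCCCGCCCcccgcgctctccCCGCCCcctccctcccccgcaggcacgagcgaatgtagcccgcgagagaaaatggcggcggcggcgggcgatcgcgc
Of its bases, 82.7% are G or C, and the median over all 32851 promoters of the same length is 52.7%. A GC box was found in 35.7% of all promoters. Motifs for GLI (GACCACCCA), TCF/LEF (CTTTGAT), AP-1 (TGANTCA), CRE (TGACGTCA) and ETS (CCGGAAG) were searched on both strands too. They occur in 0.253%, 3.73%, 7.81%, 1.79% and 8.86% of all promoters, and these letters are in none of the 8 promoter windows that were found for 7 of the 9 kinases.

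*Map3k5* encodes ASK1, a MAP3K that responds to oxidative and other stress and activates the JNK and p38 branches. Its signal was 80.9, 77.8, 92.9, 80.8 and 90.1 in *RBS* lesions. Control eyes had 74.5, 47.0, 78.9 and 58.4, and Shh-MBs had 49.5, 20.2 and 15.9. All *RBS* lesions were above all Shh-MBs, while Shh-MB 1 was above control eye 2 and control eye 3 was above RBS 2. The log2 difference of *RBS* lesions minus Shh-MBs was 1.70 (standard error 0.323, adjusted *p* = 0.00197, limma), or 3.25-fold, and 0.85 after centring (adjusted *p* = 0.0208). For Shh-MBs minus control eyes it was -1.29 (standard error 0.400, adjusted *p* = 0.0402, limma), and -0.63 after centring, where it did not pass (adjusted *p* = 0.142). That call was also lost without any 1 of the 4 control eyes (adjusted *p* = 0.0936, 0.0509, 0.0912 and 0.0730 without control eyes 1 to 4), without Shh-MB 2 (adjusted *p* = 0.125) and without Shh-MB 3 (adjusted *p* = 0.117). For *RBS* lesions minus control eyes it was 0.41 (standard error 0.155, adjusted *p* = 0.0542, limma), and it passed the threshold without control eye 1 (0.48, adjusted *p* = 0.0443) or control eye 3 (0.51, adjusted *p* = 0.0273), with genes of low signal left out (0.41, adjusted *p* = 0.0357) and with a pseudocount of 5 (0.38, adjusted *p* = 0.0476). In the 3 Shh-MBs *Map3k5* was also the most variable of the 9 kinases, with an SD of 0.83 on the log2 scale, above that of 89.0% of all genes.

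*Map3k12* encodes DLK, the dual leucine zipper kinase of neurons, which activates JNK in damaged axons. Its signal was low, at 21.8, 33.3, 43.6, 25.4 and 35.2 in *RBS* lesions. Control eyes had 20.5, 22.7, 11.0 and 13.6, and Shh-MBs had 15.9, 21.1 and 15.9. All *RBS* lesions were above all Shh-MBs, and RBS 1 was below the highest control eye. The log2 difference of *RBS* lesions minus control eyes was 0.89 (standard error 0.258, adjusted *p* = 0.0177, limma), or 1.85-fold. It kept its direction after centring but did not pass the test there (0.71, adjusted *p* = 0.0571). The difference of *RBS* lesions minus Shh-MBs was 0.79 (standard error 0.230, adjusted *p* = 0.0172, limma), but -0.06 after centring and -0.68 with quantile normalization. That call was also lost without Shh-MB 1 (adjusted *p* = 0.0542) or Shh-MB 3 (adjusted *p* = 0.0612). Shh-MBs and control eyes differed by 0.10 (standard error 0.268, adjusted *p* = 0.823, limma).

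*Map3k13* encodes LZK, the leucine zipper kinase most closely related to DLK. Its signal was 136.7, 95.6, 88.5, 134 and 108 in *RBS* lesions. Control eyes had 99.1, 69.3, 69.4 and 73.0, and Shh-MBs had 134, 133 and 98.2. Control eye 1 was above RBS 2, RBS 3 and Shh-MB 3, and the other control eyes were below all *RBS* lesions and Shh-MBs. *RBS* lesions exceeded control eyes by 0.52 on the log2 scale (limma, standard error 0.170, adjusted *p* = 0.0285), and Shh-MBs exceeded them by 0.64 (limma, standard error 0.182, adjusted *p* = 0.0302). After centring, the first difference was 0.35 and did not pass (adjusted *p* = 0.0995). The first call was also lost without RBS 1, RBS 4 or RBS 5 (adjusted *p* = 0.0576, 0.0604 and 0.0502) and without control eye 2, 3 or 4 (adjusted *p* = 0.0755, 0.0769 and 0.0617). The second was lost without Shh-MB 1 or Shh-MB 2 (adjusted *p* = 0.0828 and 0.102) and without control eye 2, 3 or 4 (adjusted *p* = 0.0753, 0.0738 and 0.0690). *RBS* lesions minus Shh-MBs gave -0.12 (adjusted *p* = 0.615, limma) and -0.96 after centring (adjusted *p* = 0.00212).

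*Map3k14* encodes NIK, the kinase that starts the alternative NF-kappa-B pathway. The signal was between 33.9 and 56.3 in the *RBS* lesions, with a median of 45.4. It was between 36.9 and 50.3 in the control eyes (median 41.8) and between 37.1 and 55.1 in the Shh-MBs (median 43.9). The 3 groups overlapped completely, and the log2 differences were 0.05, -0.02 and 0.08 in the 3 comparisons (adjusted *p* between 0.779 and 0.919, limma). After centring, however, *Map3k14* was lower in *RBS* lesions than in Shh-MBs (-0.87, adjusted *p* = 0.00178) and higher in Shh-MBs than in control eyes (0.74, adjusted *p* = 0.00503), and the difference of *RBS* lesions minus control eyes turned to -0.13.

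*Map3k8* encodes TPL2, which activates MEK1 and MEK2 after inflammatory signals. It had the lowest signal of the 9 kinases, between 8.75 and 19.9 in control eyes, between 9.63 and 26.7 in *RBS* lesions and between 8.27 and 13.7 in Shh-MBs. These values rest on 7.46 to 19.1 counting steps, which limits what can be seen. The groups overlapped, and the differences of 0.16, 0.39 and -0.22 did not pass the test (adjusted *p* = 0.709, 0.364 and 0.625, limma). They changed sign to -0.02, -0.46 and 0.44 after centring.

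**Figure D2:**
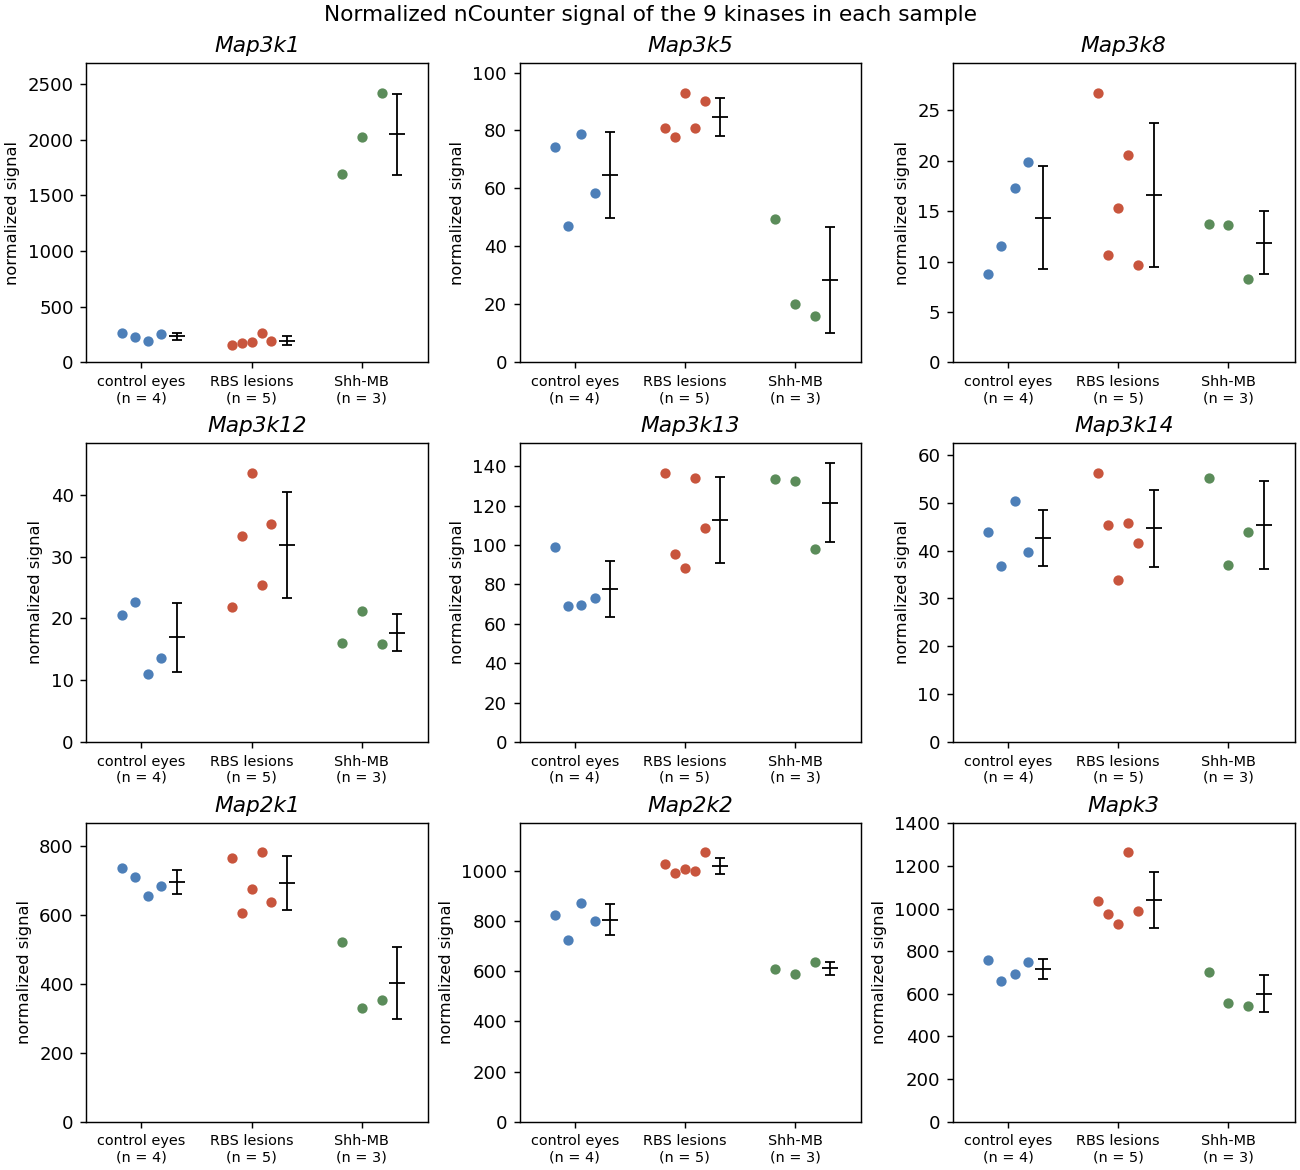
Normalized signal (y axis, linear and starting at 0, with its own scale in each panel) of the 9 kinases in every sample of the 3 groups (x axis), with points for samples and black marks for the mean ± SD. *Map3k1* lies between 1696 and 2419.8 in Shh-MBs and at 265 or less in the eyes, and *Map2k2* and *Mapk3* in *RBS* lesions lie above both other groups, although against Shh-MBs their log2 differences were -0.11 and -0.05 after centring.

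*Map2k1* and *Map2k2* encode MEK1 and MEK2, the closely related MAP2Ks that phosphorylate the ERK kinases. *Map2k1* had a signal of 764, 606, 674, 781 and 638 in *RBS* lesions. It was 735, 709.9, 655 and 684 in control eyes and 521, 331 and 354 in Shh-MBs. The eyes overlapped completely, and all Shh-MBs were below all eyes. Between the eyes, the difference of *RBS* lesions minus controls was -0.01 on the log2 scale (limma, standard error 0.101, adjusted *p* = 0.923). The difference was 0.81 for *RBS* lesions minus Shh-MBs (standard error 0.173, adjusted *p* = 0.00383, limma), but -0.04 after centring. For Shh-MBs minus control eyes it was -0.82 (standard error 0.172, adjusted *p* = 0.00860, limma) and -0.15 after centring (adjusted *p* = 0.354).

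The signal of *Map2k2* was 1028, 992, 1006, 997 and 1072 in *RBS* lesions. It was 823, 723, 871 and 800.0 in control eyes and 609, 587 and 636 in Shh-MBs. The 3 groups did not overlap, with *RBS* lesions highest and Shh-MBs lowest. The log2 difference of *RBS* lesions minus control eyes was 0.34 (standard error 0.0810, adjusted *p* = 0.00637, limma), or 1.27-fold, and 0.16 after centring (adjusted *p* = 0.158). *RBS* lesions minus Shh-MBs gave 0.74 (standard error 0.0847, adjusted *p* = 0.000136, limma), but -0.11 after centring. Shh-MBs minus control eyes gave -0.39 (standard error 0.100, adjusted *p* = 0.0195, limma), but 0.27 after centring, and the call was lost without Shh-MB 2 (adjusted *p* = 0.0808). *Map2k2* was among the steadiest genes within *RBS* lesions, where its SD of 0.046 on the log2 scale was above that of 1.04% of all genes.

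The promoters of both MAP2Ks are shown because *Map2k2* passed the test between the eyes and the closely related *Map2k1* did not. Both come from RefSeq (GRCm38.p6) and cover the same stretch around the start as above, with the GC box in capitals. *Map2k1* is located at chr9:64253556-64253855 on the minus strand and *Map2k2* at chr10:81105665-81105964 on the plus strand.
*Map2k1*: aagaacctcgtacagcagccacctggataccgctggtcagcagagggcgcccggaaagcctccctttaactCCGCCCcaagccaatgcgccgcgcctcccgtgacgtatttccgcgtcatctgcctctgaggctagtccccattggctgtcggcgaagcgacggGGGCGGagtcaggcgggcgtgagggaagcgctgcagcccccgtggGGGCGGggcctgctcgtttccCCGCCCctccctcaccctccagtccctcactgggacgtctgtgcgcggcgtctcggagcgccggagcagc
*Map2k2*: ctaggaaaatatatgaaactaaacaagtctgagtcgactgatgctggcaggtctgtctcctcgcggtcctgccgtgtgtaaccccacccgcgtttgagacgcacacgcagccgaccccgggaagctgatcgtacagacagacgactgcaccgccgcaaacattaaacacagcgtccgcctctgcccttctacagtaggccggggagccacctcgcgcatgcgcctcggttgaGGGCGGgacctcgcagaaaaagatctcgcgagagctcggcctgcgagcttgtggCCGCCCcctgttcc
The *Map2k1* window holds 4 GC boxes at 69.0% G or C, and the *Map2k2* window holds 2 at 60.7%. Among the other windows, *Map3k5* has 2 GC boxes, *Map3k14* has 1, the 2 windows of *Map3k12* have 2 and 1, and the *Map3k13* window, at 51.0% G or C, has no match to these letters.

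The ratio of 2 genes within a sample was taken as the difference of their log2 of the signal plus 1. At signals as high as those of the MAP2Ks it hardly depends on the factor by which the sample was scaled, while for the low *Map3k12* the added 1 leaves some dependence. The log2 ratio of *Map2k2* to *Map2k1* was 0.43, 0.71, 0.58, 0.35 and 0.75 in *RBS* lesions. It was 0.16, 0.026, 0.41 and 0.22 in control eyes and 0.23, 0.82 and 0.85 in Shh-MBs. Only RBS 4 was below the highest control eye. The difference of *RBS* lesions minus control eyes was 0.36 (standard error 0.111), with *p* = 0.0317 in an exact two-sided permutation test over 126 splits and 0.171 after Benjamini-Hochberg adjustment over the 6 ratio tests. It did not pass the test after adjustment, and the 0.43 of Shh-MBs minus control eyes (exact *p* = 0.114) and the -0.07 of *RBS* lesions minus Shh-MBs (exact *p* = 0.696) did not pass it either. These comparisons with Shh-MBs had only 35 and 56 splits, so for any ratio the smallest possible exact *p* was 0.0286 and 0.0179. They could hardly have passed after adjustment, and the lack of a call there says little. For *Map3k12* to *Map3k13*, the other pair of closely related kinases, the differences were 0.36, 0.90 and -0.54, with exact *p* of 0.381, 0.0714 and 0.0857, and the groups overlapped in all 3 comparisons. With a pseudocount of 5 in place of 1 they were 0.25, 0.79 and -0.54.

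**Figure D3:**
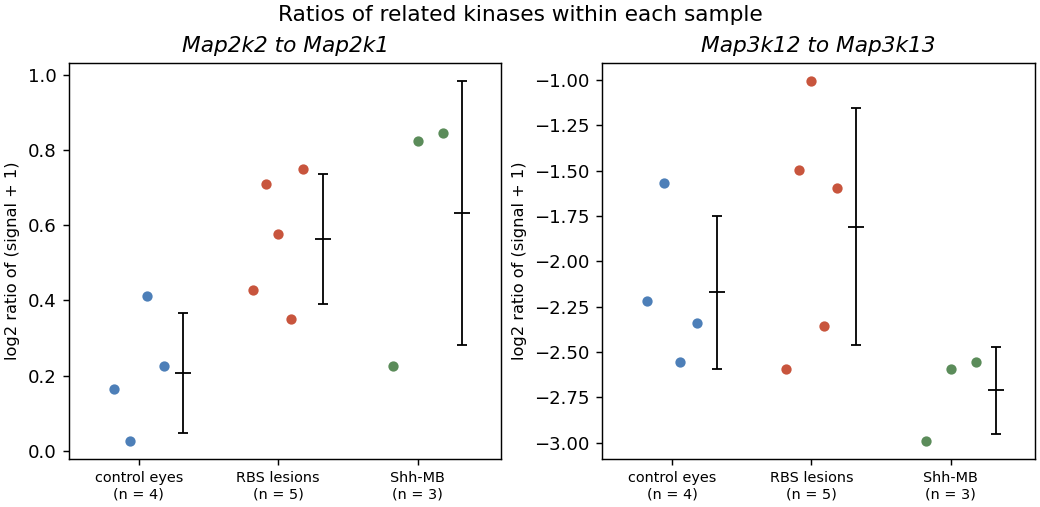
log2 ratio of the signals of related kinases within each sample, each signal plus 1 (y axis) in the 3 groups (x axis), with points for samples and black marks for the mean ± SD. The *Map2k2* to *Map2k1* ratio lies between 0.35 and 0.75 in *RBS* lesions, between 0.026 and 0.41 in control eyes and between 0.23 and 0.85 in Shh-MBs, and the groups overlap in both ratios.

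*Mapk3* encodes ERK1, the MAPK at the end of the MEK branch. Its signal was 1038, 975, 929, 1263 and 990.1 in *RBS* lesions. It was 757, 662, 691 and 751 in control eyes and 701, 559 and 541 in Shh-MBs. All *RBS* lesions were above all samples of the other groups, and Shh-MB 1 fell among the control eyes. The log2 difference of *RBS* lesions minus control eyes was 0.53 (standard error 0.107, adjusted *p* = 0.00282, limma), or 1.45-fold, and it passed the test after centring too (0.35, adjusted *p* = 0.0152). *RBS* lesions minus Shh-MBs gave 0.79 (standard error 0.141, adjusted *p* = 0.00140, limma), but -0.05 after centring. Shh-MBs minus control eyes gave -0.26 (standard error 0.126, adjusted *p* = 0.148, limma), which passed without Shh-MB 1 (-0.38, adjusted *p* = 0.0357) and turned to 0.41 after centring (adjusted *p* = 0.0183).

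Among 12 other kinases of the cascade, most had more signal in *RBS* lesions than control eyes had. Of these 12, 8 were higher and none was lower, where 33.0% and 18.2% of all genes were, with a median log2 difference of 0.50 beside 0.17 over all genes. At an unadjusted *p* under 0.05 the number lower was also 0, beside 19.7% of all genes. After centring, 6 were higher and 1 was lower, where of all 770 genes 177 were higher and 177 lower. *Braf*, a MAP3K at the head of the ERK branch, rose from 209 ± 13.5 in control eyes to 299.9 ± 27.0 in *RBS* lesions (log2 difference 0.52, adjusted *p* = 0.00159, limma).

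Of the 12, *Mapk10*, the JNK gene of neurons, had the largest difference, with a signal of 1263 ± 136 in *RBS* lesions and 271 ± 46.4 in control eyes (log2 difference 2.23, adjusted *p* = 4.01e-06, limma). *Mapk8* and *Mapk9*, the widely expressed JNK genes, rose by 0.77 and 0.61 (adjusted *p* = 0.000164 and 0.000825). *Map2k4*, a MAP2K of JNK, and *Zak*, a stress MAP3K, rose by 0.48 and 0.48 (adjusted *p* = 0.0367 and 0.0468), and neither passed after centring (0.30 for both, adjusted *p* = 0.211 and 0.168). *Pak3* and *Pak7*, p21-activated kinases of neurons, rose by 1.29 and 1.10 (adjusted *p* = 0.000102 and 0.000277). *Map3k7* (0.08, but -0.10 after centring), *Stk4* (0.12, but -0.058 after centring), the p38 kinase gene *Mapk12* (-0.64, at a mean signal of 5.30 in *RBS* lesions and 8.43 in control eyes) and the p38 activator *Map2k6* (-0.20, and -0.38 after centring with adjusted *p* = 0.0176) did not pass the test.

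Against Shh-MBs, 8 of these 12 kinases were higher in *RBS* lesions and *Map2k6* was lower, where 48.1% and 12.7% of all genes were, with a median of 0.64 beside 0.53 over all genes. After centring, 1 was higher and 4 were lower, where of all 770 genes 181 were higher and 319 lower. *Mapk10* was higher by 1.13 (adjusted *p* = 0.000242, limma), but by 0.28 after centring, where it did not pass (adjusted *p* = 0.117). *Pak3* was higher by 1.78 (adjusted *p* = 1.86e-05), while *Map2k6* had 181 ± 20.1 in *RBS* lesions and 248 ± 18.6 in Shh-MBs (-0.46, adjusted *p* = 0.0107). Between Shh-MBs and control eyes, where 9.61% of all genes were higher and 31.4% lower, *Map3k7* (0.31, adjusted *p* = 0.0348) and *Mapk10* (1.10, adjusted *p* = 0.00324) were higher, *Pak3* was lower (-0.49, adjusted *p* = 0.0471, but 0.18 after centring), and 9 did not pass the test. After centring, 7 were higher and none lower, where of all 770 genes 311 were higher and 139 lower.

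**Figure D4:**
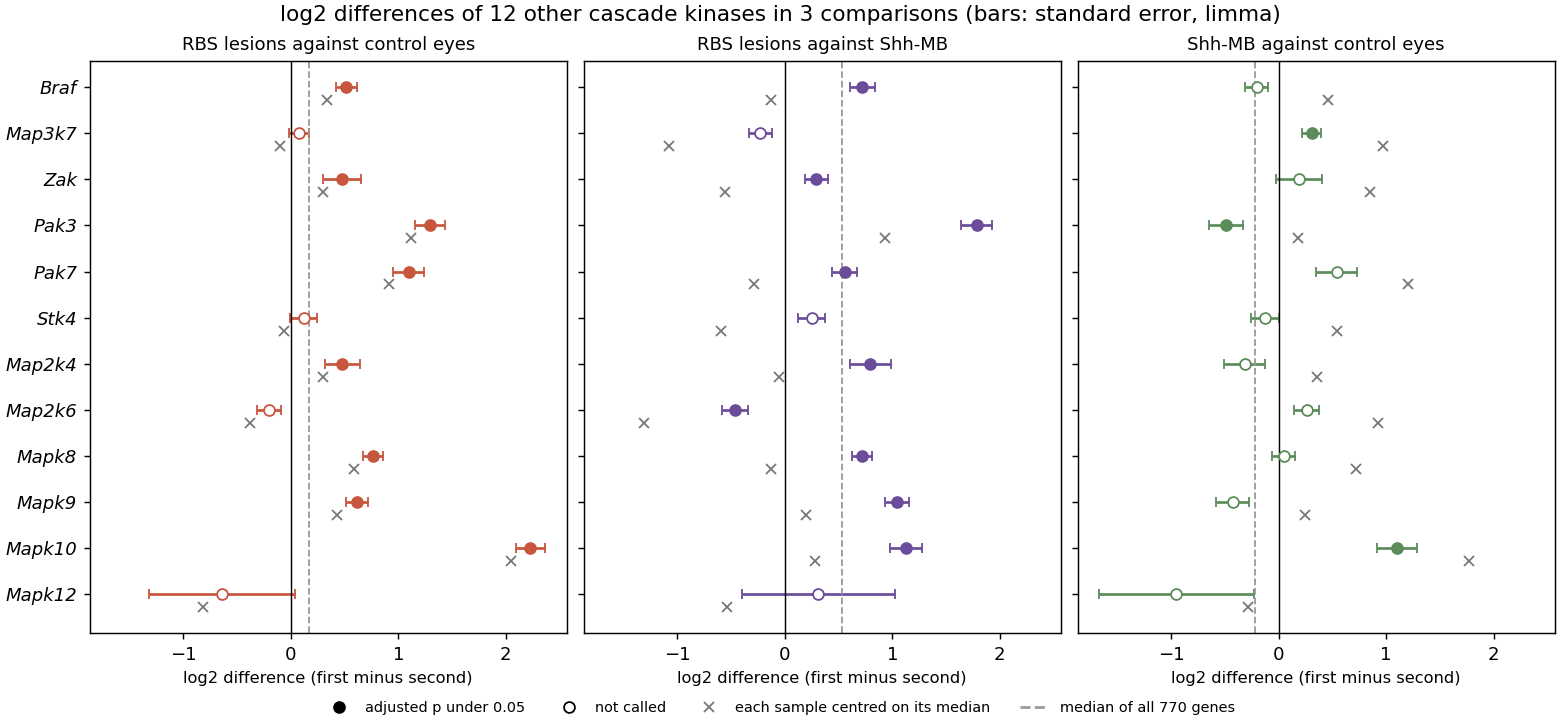
log2 differences (x axis, first group minus second, log2 of signal plus 1) of 12 other cascade kinases (rows) in the 3 comparisons, with bars for the standard error from limma, filled points for an adjusted *p* under 0.05, crosses for the difference with each sample centred on its median and a dashed line for the median of all 770 genes. *Mapk10* lies at 2.23, 1.13 and 1.10 in the 3 panels, and its cross in the middle panel lies at 0.28.

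Scaffolds and phosphatases of the cascade were represented by 12 genes. Of these, 7 were higher and 2 lower in *RBS* lesions when set against control eyes (median 0.90), 8 higher and 1 lower when set against Shh-MBs (median 0.66), and between Shh-MBs and control eyes 3 were higher and 3 lower (median -0.14). Over all genes, 33.0% were higher and 18.2% lower in the first of these comparisons (median 0.17), 48.1% and 12.7% in the second (0.53), and 9.61% and 31.4% in the third (-0.22). After centring the calls were 6 higher and 2 lower, 4 and 4, and 5 and 2, where of all 770 genes 177 were higher and 177 lower, 181 and 319, and 311 and 139. *Ptpn5*, a phosphatase of neurons that acts on ERK and p38, had the largest rise in *RBS* lesions, with 638 ± 55.0 against 136 ± 20.1 in control eyes (log2 difference 2.23, adjusted *p* = 3.12e-06, limma) and 25.5 ± 24.7 in Shh-MBs (4.98, adjusted *p* = 4.71e-05). *Dusp5*, a nuclear ERK phosphatase, had the largest fall in *RBS* lesions, with 33.5 ± 6.37 against 60.5 ± 11.6 in control eyes (-0.83, adjusted *p* = 0.00403) and 215 ± 56.7 in Shh-MBs (-2.63, adjusted *p* = 2.44e-05). The same genes were at the ends of the list between Shh-MBs and control eyes, with *Dusp5* higher by 1.80 (adjusted *p* = 0.00110) and *Ptpn5* at -2.74 (adjusted *p* = 0.00668).

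Substrates and effector kinases comprised 14 genes, of which 9 were higher and 1 lower in *RBS* lesions when set against control eyes (median 0.49), beside 33.0% and 18.2% of all genes (median 0.17), and 5 and 1 after centring. *Pla2g4e* had the largest rise on the scale of log2 of the signal plus 1, from 2.93 ± 2.36 to 18.0 ± 6.88 (2.36, adjusted *p* = 0.000722, limma). Its signal was near the lowest values of the control eyes, so the size and rank of its rise depend on the added 1. *Pla2g4a* had the fall (-0.76, adjusted *p* = 0.0120). Both encode cytosolic phospholipases A2. Against Shh-MBs, 6 were higher and 2 lower (median 0.62), and 3 and 4 after centring. The share higher was below the 48.1% of all genes, of which 12.7% were lower (median 0.53). *Mapt*, which encodes the neuronal microtubule protein tau, was higher in *RBS* lesions by 2.72 (adjusted *p* = 5.87e-06), and *Trp53* was lower (-1.03, adjusted *p* = 0.000157). Between Shh-MBs and control eyes, 3 were higher and 3 lower (median 0.11), beside 9.61% and 31.4% of all genes (median -0.22), and 8 and 1 after centring. *Trp53* was highest among the rises (0.95, adjusted *p* = 0.000611), and *Pla2g4a* among the falls (-2.56, adjusted *p* = 0.00220). Of all 770 genes, 177 were higher and 177 lower after centring in the first of these comparisons, 181 and 319 in the second, and 311 and 139 in the third.

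*Map3k14*, *Map3k8*, *Map3k1* and *Map3k7* also feed into NF-kappa-B signaling, for which 12 kinases and factors were measured. In *RBS* lesions 4 were higher than in control eyes, or 33.3% beside 33.0% of all genes, and none was lower, beside 18.2% (median 0.24 and 0.17), with the largest rise for *Rel*, an NF-kappa-B subunit (0.90, adjusted *p* = 0.0199, limma). After centring, 2 were higher, where of all 770 genes 177 were higher and 177 lower. Against Shh-MBs 5 were higher, or 41.7% beside 48.1% of all genes, and none lower, beside 12.7% (median 0.37 and 0.53), led by the inhibitor of apoptosis gene *Birc3* (0.93, adjusted *p* = 0.0189). That split turned to 0 higher and 7 lower after centring, where of all 770 genes 181 were higher and 319 lower. *Birc3* had 0.08 there (adjusted *p* = 0.828). Between Shh-MBs and control eyes 1 was higher (*Rel*, 1.18, adjusted *p* = 0.0138) and 3 were lower (median -0.12), beside 9.61% and 31.4% of all genes (median -0.22), with the largest fall for *Nfkb1* (-0.54, adjusted *p* = 0.0390, but 0.12 after centring). After centring, 5 were higher and none lower, where of all 770 genes 311 were higher and 139 lower.

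Summed signals of cell type markers differed between some of these groups and overlapped between others. Neuron markers had a summed signal of 3270 to 4257 in *RBS* lesions, 1065 to 1199 in control eyes and 1266 to 1985 in Shh-MBs, and between the eyes 8 of 9 were higher in *RBS* lesions, where 33.0% of all genes were. One of them, *Mapt*, is also in the list of substrates. Sums of the mesenchyme markers lay at 26432 to 59601 in control eyes and 21359 to 38604 in *RBS* lesions, but at 1752 to 2416 in Shh-MBs, and 9 of 11 were higher and 1 lower (*Pdgfra*, -1.01) in *RBS* lesions than in Shh-MBs, where 48.1% and 12.7% of all genes were. Between the eyes, 1 of the 11 was higher in *RBS* lesions and 2 were lower, where 33.0% and 18.2% of all genes were. Surface epithelium markers summed to 12.7 to 27.1 in Shh-MBs, where *Calml3* and *Itga2* never rose above the floor, to 250.1 to 489 in control eyes and to 535 to 937 in *RBS* lesions. In the same order of groups, blood and immune markers ranged from 182 to 274, from 179.9 to 253 and from 294 to 331, and muscle markers from 284 to 327, from 19.3 to 91.0 and from 39.5 to 95.4. Of the 5 muscle markers, *Itga7* and *Fgfr4* made up most of the sum in Shh-MBs (means of 167 and 137) and were higher there than in control eyes. *Cacng1* and *Cacng6* never rose above the floor in Shh-MBs, and *Cacng1* was lower there than in control eyes (1.04 against 13.9). The part of these cell types in the differences of the 9 kinases was not tested.

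Likeness of pattern was measured by Pearson's r of the log2 values over all 12 samples, as a description, since these samples fall into 3 groups and share their scaling. The genes most like *Map3k1* were *Cdk6* (0.984), *Sufu* (0.968), *Fancf* (0.951), *Trp53* (0.950) and *Sfrp1* (0.950). For the other MAP3Ks they were *Nog* for *Map3k5* (0.952), *Elk1* for *Map3k12* (0.931), *Cd14* for *Map3k13* (0.901), *Cdkn1a* for *Map3k8* (0.826) and *Pik3r5* for *Map3k14* (0.691). They were *Itga3* for *Map2k1* (0.978), *Itga2* for *Map2k2* (0.976) and *Dtx3* for *Mapk3* (0.982). Among the 9 kinases, *Map2k2* and *Mapk3* had an r of 0.878 and *Map2k1* and *Map3k5* 0.892, while *Map3k1* had -0.887 with *Map2k1*.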

How the data were processed

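RNA was extracted from 5 *RBS* lesions, 4 control eyes and 3 Shh-MBs (RNeasy), 1 eye or tumor per mouse, and counted on the nCounter mouse PanCancer pathways panel of 770 genes. Normalization was done by the authors in nSolver with its Advanced Analysis module, and they deposited a normalized signal on the linear scale. Low values lie on even steps, of 1 size in each sample. The reference genes, and whether a background level was subtracted, are not given in the sources used here. Total signal divided by the step was taken as depth. It covers counting error only.

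Groups were compared with limma 3.58.1 in R 4.3.3 on log2 of the signal plus 1 (2 groups per fit, eBayes, two-sided, no filter, Benjamini-Hochberg over 770 genes, threshold 0.05). Ratios of related kinases were compared by exact permutation tests, adjusted over the 6 tests shown; some genes of the panel, and a ratio that needs one of them, are not reported here. Python 3.11.15 with matplotlib 3.10.9 drew the figures. The 9 kinases and all gene lists were chosen with earlier results of these data known, and lists were written from general knowledge. The genes named are all 9 kinases, the 12 other cascade kinases, the called gene with the largest rise and fall of each other list and comparison, and the genes most alike in pattern (5 for *Map3k1*, 1 for each other kinase), beside *Ctnnb1* and *Smo* as a check of the alleles. Marker genes were named to show what a marker list holds or which of its genes moved apart from it or lay at the floor, and were chosen after their values were seen.

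Alternatives were the methods' *t* test (Welch, with *p*-values from the *t* distribution and step-down Bonferroni or Benjamini-Hochberg adjustment), limma fitted on all 12 samples or with its trend and robust options, median centring, quantile normalization, the total without the 3 most abundant genes, leaving out genes with a mean signal under 20, a pseudocount of 5, a replicate block, and leaving out each sample. Setting values under 20 to 20, and running all alternatives on the lists, were added after seeing the data. No batch is given in the labels. The number of value columns not used was 0. The steps were tested on simulated data. Promoters were matched by symbol for 7 of the 9 kinases.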

Additional observations from a re-analysis of the deposited data

Results flagged for a closer look

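In control eyes, the highest sample of *Map3k13*, control eye 1, had a signal of 99.1 and lay far from the other 3, with a gap to the nearest of 0.876 of the whole range. It was the only such value among 22 groups of values tested (9 kinases and 2 ratios in control eyes and in *RBS* lesions), where about 1 in 20 is reached by chance.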

How the results depend on the processing

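Of the differences of the 9 kinases under the alternatives, 141 of 179 for *RBS* lesions against control eyes, 140 of 170 against Shh-MBs and 115 of 160 for Shh-MBs against control eyes kept their direction and their side of the threshold, while 13, 9 and 11 changed sign. Below, the comparisons are given in this order, and the cause was not tested. Depth limits *Map3k8* and *Map3k12*, whose values rest on 7.46 to 49.4 counting steps.

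The methods' *t* test with step-down Bonferroni adjustment called 0, 1 and 0 of the 9 kinases (beside 9.35%, 10.4% and 4.68% of all genes), 1, 2 and 0 other cascade kinases, 1, 1 and 1 scaffolds and phosphatases, 1, 1 and 0 substrates and 0, 1 and 1 NF-kappa-B genes. With Benjamini-Hochberg adjustment, that test called 2 kinases, 2 substrates and 2 NF-kappa-B genes in Shh-MBs against control eyes (28.2% of all genes, beside 41.0% with limma).

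For *RBS* lesions against control eyes, centring gave 2 of the 9 kinases, 6 substrates and 2 NF-kappa-B genes, and quantile normalization gave 2, 4 and 1 (46.0% and 47.3% of all genes, beside 51.2%). For *RBS* lesions against Shh-MBs, the total without the 3 most abundant genes gave 1 NF-kappa-B gene and centring gave 5 other cascade kinases (56.8% and 64.9% of all genes, beside 60.8%). For Shh-MBs against control eyes, the total without the 3 most abundant genes gave 3 of the 9 kinases and 5 other cascade kinases (43.8% of all genes). Other cascade kinases there numbered 7 with centring (58.4% of all genes), 7 with quantile normalization (48.3%) and 5 with limma with trend and robust settings, with all 12 samples or without low genes (46.4%, 45.7% and 55.4%), and quantile normalization called 10 substrates.

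Deviations of same-numbered samples were only weakly correlated (-0.15 to 0.19). That cannot exclude a pairing, and the labels give none. With the replicate block, 2, 5 and 2 of the 9 kinases were called (beside 39.1%, 52.9% and 29.9% of all genes, and 51.2%, 60.8% and 41.0% without it), 5 substrates in *RBS* lesions against control eyes, and 3 and 1 NF-kappa-B genes in the comparisons with Shh-MBs. *Map2k1* turned to 0.015 in *RBS* lesions against control eyes under this replicate block.

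Leaving out 1 sample gave 3 to 5, 5 to 6 and 2 to 5 of the 9 kinases, beside 45.5% to 50.9%, 54.9% to 62.1% and 32.5% to 40.6% of all genes. It gave 3 to 5 NF-kappa-B genes for *RBS* lesions against Shh-MBs, and 1 to 3 other cascade kinases and 2 to 4 NF-kappa-B genes for Shh-MBs against control eyes. The kinase count for Shh-MBs against control eyes fell to 2 without Shh-MB 2 (32.5% of all genes) and to 3 without control eye 2, 3 or 4.

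After centring, differences changed sign to -0.016 (*Map3k8*) and -0.13 (*Map3k14*) for *RBS* lesions against control eyes, to -0.46 (*Map3k8*), -0.059 (*Map3k12*), -0.040 (*Map2k1*), -0.11 (*Map2k2*) and -0.054 (*Mapk3*) against Shh-MBs, and to 0.44 (*Map3k8*), 0.27 (*Map2k2*) and 0.41 (*Mapk3*) for Shh-MBs against control eyes. Quantile normalization gave -0.17 and -0.14 (*Map3k8* and *Map3k14*), -1.10 and -0.68 (*Map3k8* and *Map3k12*), and 0.97 and 0.020 (*Map3k8* and *Mapk3*). Without the 3 most abundant genes they were -0.0077 (*Map3k14*, *RBS* lesions against control eyes), 0.065 (*Map3k8*) and 0.053 (*Mapk3*, both Shh-MBs against control eyes), and with values under 20 set to 20 *Map3k12* was -0.026 there.

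Leaving out 1 sample changed the sign within ranges of -0.034 to 0.33 (*Map3k8*), -0.033 to 0.15 (*Map3k14*) and -0.058 to 0.033 (*Map2k1*) for *RBS* lesions against control eyes, -0.16 to 0.12 (*Map3k14*) and -0.27 to 0.039 (ratio of *Map2k2* to *Map2k1*) against Shh-MBs, and -0.076 to 0.25 (*Map3k12*) and -0.070 to 0.21 (*Map3k14*) for Shh-MBs against control eyes.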
